A study of Caenorhabditis elegans with 4 samples.

Results

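The X chromosome of Caenorhabditis elegans was examined for sites bound by AMA-1, the large catalytic subunit of RNA polymerase II, in mixed-stage embryos. Its members were all peaks listed on chromosome X: 327 of 2672 peaks in ChIP replicate 1, 506 of 3818 in ChIP replicate 2, and 2570 of 18518 in a list made for the series as a whole. The 2 ChIP samples and 2 input samples came from the wild-type strain N2 grown at 20 °C, and the embryos were labelled as a mixed male and hermaphrodite population. The precipitating antibody was a rabbit polyclonal against AMA-1. No group differed in genotype or treatment, so X was set against the 5 autosomes of the same lists. All coordinates are in WormBase WS220.

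RNA polymerase II transcribes protein-coding genes and many small non-coding genes, and a ChIP peak of AMA-1 marks DNA where the enzyme was bound in enough of the cells to be called. Hermaphrodites of C. elegans carry a pair of X chromosomes and males a single one. In hermaphrodite embryos a condensin-based dosage compensation complex binds along both X chromosomes and lowers their transcription, while males lack this binding. X is also poor in genes expressed in the germ line, and its arms and centre differ less in gene density and recombination than those of the autosomes. Whole embryos of several stages were pooled, by the label of both sexes, and the share of males is not known here. Polymerase in fewer cells and less polymerase per cell thus cannot be told apart, nor can the sexes.

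Each peak carries a score that the authors deposited, on a scale that is not given, so scores were ranked within each list from 0 for the weakest peak to 100 for the strongest. In the replicate lists many peaks share a score of 3100, called the ceiling here. A few peaks scored higher, up to 3233.06 in replicate 1 and 3217.26 in replicate 2. Whether these were stronger than the peaks at 3100 is unknown. The replicate lists hold broad peaks and the series-level list narrow ones, with a median width on X of 3947 bp in replicate 1, 3831 bp in replicate 2 and 413 bp in the series-level list. The series-level list is not a further replicate. Read depth is unknown, and intervals on counts and shares are 95% intervals that cover counting error only. The labels do not say whether the ChIP replicates were grown apart, and their spread may be technical only. An SD over the 2 replicates is the spread between lists that share many sites, and does not cover counting error. One X against 5 autosomes cannot give an exact permutation p below 0.167, so no p is given for that comparison.

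X carried fewer polymerase peaks per Mb than the autosomes as a whole in all 3 lists, and nearly all of its 1 Mb steps lay below the autosomal density. It was sparser than each of I to IV in both replicates, but not than V. X had 18.5 peaks per Mb in replicate 1 (Poisson interval 16.5 to 20.6) and the autosomes 28.4 (27.3 to 29.6). In replicate 2 X had 28.6 peaks per Mb (26.1 to 31.2) and the autosomes 40.2 (38.8 to 41.6). The ratio of X to autosomes was 0.680 ± 0.0439 (SD, n = 2 replicates). Against V alone it was 0.959 in replicate 1, with an exact interval of 0.827 to 1.11. In replicate 2 it was 1.08 against V, with limits of 0.951 and 1.22. Against IV, the next sparsest autosome, the ratios were 0.771 (0.665 to 0.893) and 0.795 (0.706 to 0.896). Peaks covered 9.04% of X in replicate 1 and 14.2% in replicate 2, against 11.8% and 18.1% of the autosomes. By covered bases the ratio of X to autosomes was 0.778 ± 0.0118 (SD, n = 2).

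In steps of 1 Mb, all 18 steps of X lay below the mean autosomal density in replicate 1, and in 10 of them the upper limit of the interval did as well. In replicate 2, 17 of 18 steps lay below it, 8 with their whole interval. The exception was step 15, from 14 to 15 Mb, with 43 peaks (31.1 to 57.9). No step had an interval wholly above the autosomal density in either replicate. The 17 full steps held between 12 and 28 peaks in replicate 1, with a median of 17, and between 18 and 43 in replicate 2, with a median of 28.

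**Figure D1:**
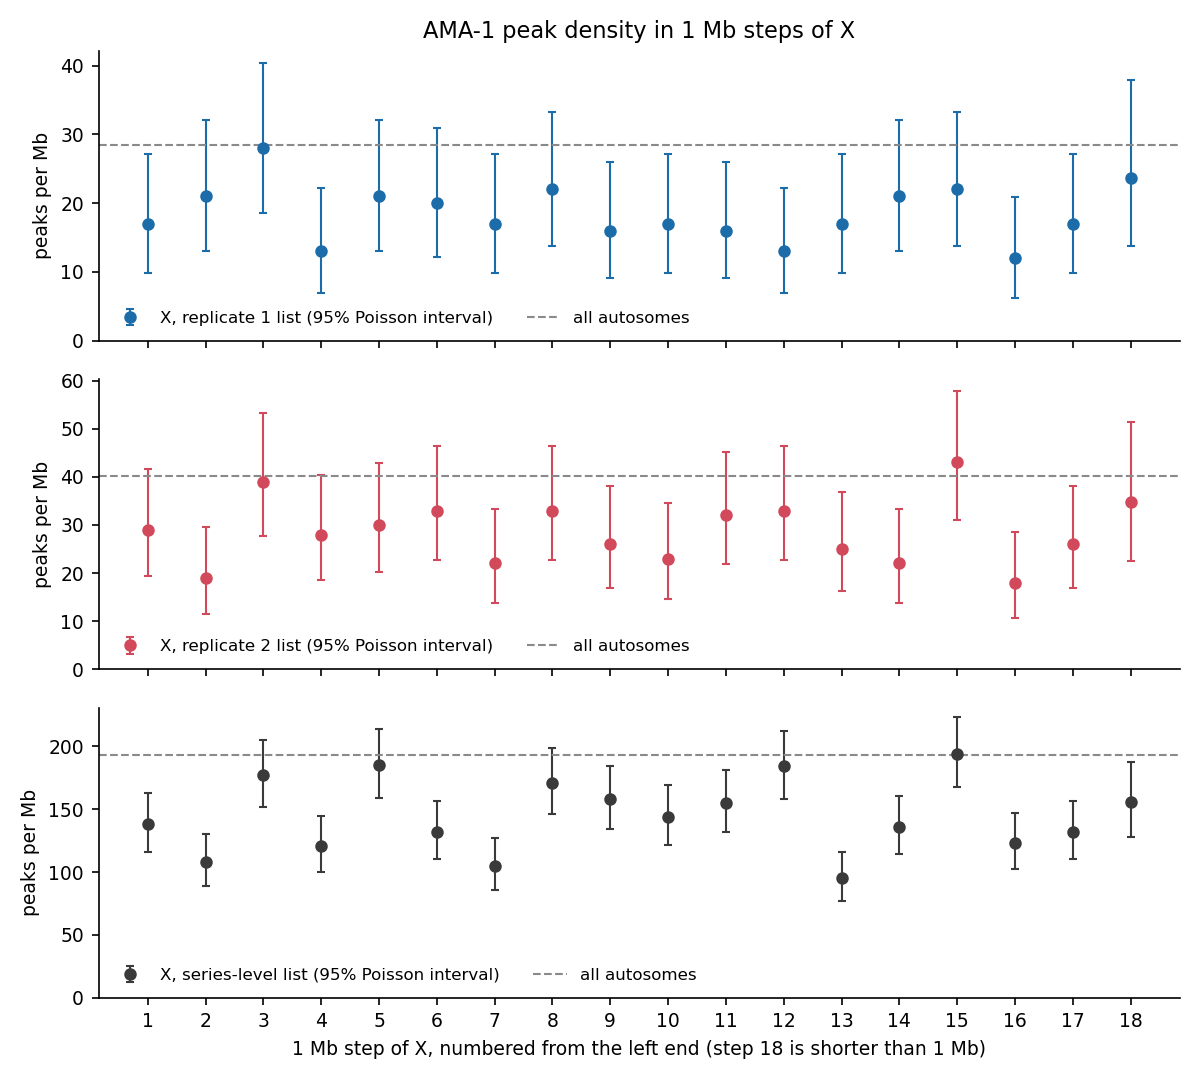
Peaks per Mb (vertical axis) in each 1 Mb step of X (horizontal axis, numbered from the left end) in the 3 lists, as points with 95% Poisson intervals; the dashed line is the density over all autosomes. All 18 steps lie below the line in replicate 1 and 17 of 18 in replicate 2.

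Summed over both replicates, peaks were most frequent at 2 to 3 Mb and least frequent at 15 to 16 Mb. The step from 2 to 3 Mb held 28 peaks in replicate 1 and 39 in replicate 2, with 12.1% of its bases covered in both. The step from 14 to 15 Mb held 22 and 43 peaks, and the step from 7 to 8 Mb held 22 and 33. The fewest peaks lay from 15 to 16 Mb, next to one of the richest steps, with 12 in replicate 1 and 18 in replicate 2 and 5.15% of bases covered in both. The step from 6 to 7 Mb (17 and 22 peaks) came next, and then, with equal sums, those from 1 to 2 Mb (21 and 19) and from 9 to 10 Mb (17 and 23). The step from 1 to 2 Mb was the only one of 18 with fewer peaks in replicate 2 than in replicate 1. Across the 17 full steps the peak numbers of the replicates had a Spearman rho of 0.37 and the covered shares a rho of 0.75, a description only, since the steps share their libraries. The neighbouring steps in this order differ by a few peaks and their intervals overlap.

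The centre of X had fewer peaks per Mb than the arms in both replicates, but both intervals of the ratio include 1. By peak midpoint, the left arm (up to 6140000 bp) held 126 peaks in replicate 1 and 184 in replicate 2, the centre (up to 12480000 bp) held 101 and 173, and the right arm held 100 and 149. The centre had 15.9 peaks per Mb in replicate 1 and the arms 19.9, a ratio of 0.802 (exact interval 0.628 to 1.02). In replicate 2 these densities were 27.3 and 29.3, a ratio of 0.932 (0.771 to 1.12). The ratio of the right to the left arm was 0.930 (0.708 to 1.22) in replicate 1 and 0.949 (0.760 to 1.18) in replicate 2. All 4 intervals include 1, so a difference in density between parts of X was not detectable with these counts. Against the autosomes, the density ratios were 0.734 ± 0.0173 for the left arm, 0.620 ± 0.0843 for the centre and 0.690 ± 0.0261 for the right arm (SD, n = 2 each).

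The median peak on X was broader than that on every autosome in both replicates. In replicate 1 the X peaks ran from 1214 to 18678 bp with quartiles of 2515.5, 3947 and 6336.5 bp, and the autosomal quartiles were 2086, 3205 and 5109 bp. In replicate 2 the X peaks ran from 1212 to 20887 bp with quartiles of 2323.75, 3831 and 6748.25 bp, against autosomal quartiles of 2085, 3245.5 and 5699 bp. The widest autosomal peaks, 21375 bp in replicate 1 and 32130 bp in replicate 2, exceeded the widest on X. In replicate 2 the order of the upper tails was also the opposite, with a 96th percentile of 12180 bp on X and 12962 bp on the autosomes. The ratio of medians was 1.21 ± 0.0361 (SD, n = 2). Single autosomes had medians between 3098 bp (I) and 3493.5 bp (V) in replicate 1 and between 3128.5 bp (I) and 3290 bp (II) in replicate 2. In the series-level list the medians were 413 bp on X and 405 bp on the autosomes, a ratio of 1.02, and V had a wider median than X, 420 bp. The greater width of X was thus seen in the broad peaks of the replicate lists.

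**Figure D2:**
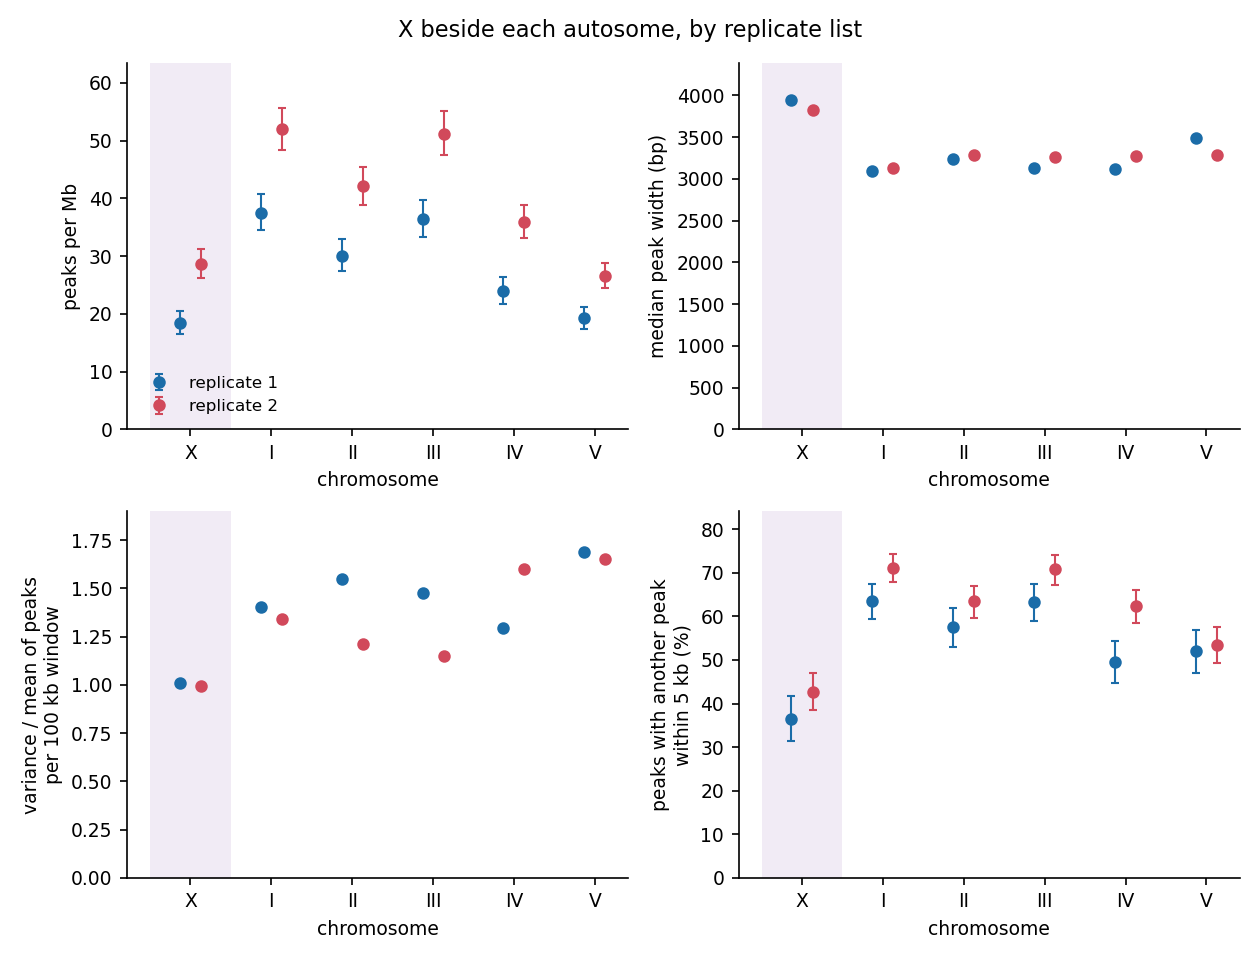
Peak density with Poisson intervals, median peak width, variance over mean of peaks per 100 kb window, and percent of peaks with another peak within 5 kb (Wilson intervals) for X (shaded) and each autosome; blue is replicate 1 and red is replicate 2. X has the widest median and the lowest variance over mean and percent with a neighbour in both replicates, while its density is close to that of V.

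The greater width was present at matched score rank. In the weakest score quartile of replicate 1 the median width was 2211.5 bp on X (n = 90) and 1914.5 bp on the autosomes (n = 578). In the strongest quartile it was 7459 bp on X (n = 89) and 6144 bp on the autosomes (n = 579). In replicate 2 the weakest quartile had 1968 bp on X (n = 119) and 1785 bp on the autosomes (n = 836), and the strongest 7492.5 bp on X (n = 128) and 6610 bp on the autosomes (n = 827). All 8 pairs of medians, from 4 quartiles in each of the 2 replicates, had X above the autosomes.

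**Figure D3:**
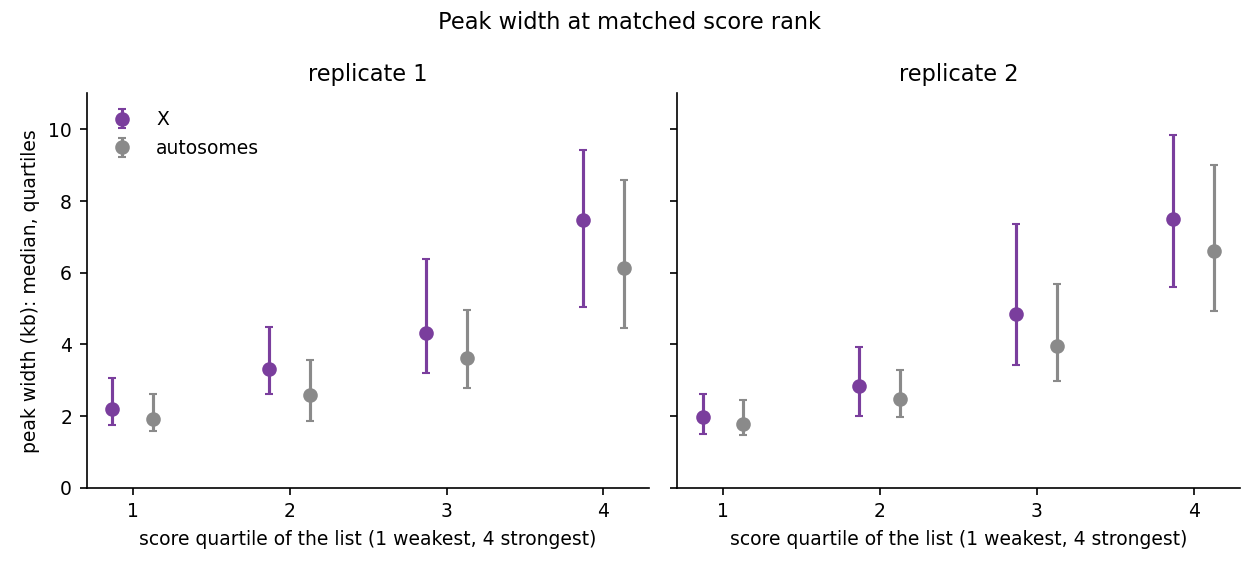
Peak width in kb (points are medians, bars run from the first to the third quartile) by score quartile within each list, for X and the autosomes. X medians lie above the autosomal ones in every quartile of both replicates, with 7459 bp on X and 6144 bp on the autosomes in the strongest quartile of replicate 1.

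Very broad peaks took a larger share of X than of the lists as a whole. In replicate 1, 59 X peaks exceeded 8 kb, or 18.04% (Wilson interval 14.3 to 22.6), where 11% of all peaks of that list did and 10.0% of the autosomal ones (8.87 to 11.3). In replicate 2, 94 X peaks exceeded 8 kb, or 18.6% (15.4 to 22.2), where 14.1% of all peaks did and 13.4% of the autosomal ones (12.3 to 14.6). Within X the share was highest in the centre of both lists, at 25.7% (18.2 to 35.0) in replicate 1 and 20.8% (15.4 to 27.5) in replicate 2. The left arm had 14.3% (9.23 to 21.5) and 16.3% (11.7 to 22.3) and the right arm 15% (9.31 to 23.3) and 18.8% (13.3 to 25.8), so the intervals overlap. By step, the median width ran from 2683 bp (12 to 13 Mb) to 6935.5 bp (10 to 11 Mb) in replicate 1, and from 2859 bp (12 to 13 Mb) to 5645 bp (16 to 17 Mb) in replicate 2. The median of a step exceeded the autosomal median in 16 of 18 steps in replicate 1 and in 13 of 18 in replicate 2.

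The 5 widest X peaks stood between score percentiles 7.0 and 92.3 in replicate 1 and between 54.9 and 70.6 in replicate 2. The widest of replicate 1, at X:3450112-3468789 on the left arm, spanned 18678 bp and scored 245.54, at percentile 54.1 of its list. Replicate 2 had a peak of 19430 bp at nearly the same place, X:3450198-3469627, with a score of 560.43 at percentile 58.2. The widest of replicate 2, at X:9408322-9429208 in the centre, spanned 20887 bp and scored 653.25. Replicate 1 listed only X:9408368-9411529 there, with a score of 55.46, so its extent was not shared. Of the other wide peaks of replicate 1, the one at X:16928921-16946179 on the right arm (17259 bp) met a replicate 2 peak of score 3100, and the one at X:15266556-15281148 (14593 bp) met one of 882.9. The remaining pair, at X:3111073-3128669 and X:9096616-9112996, overlapped no replicate 2 peak. In replicate 2 the other wide peaks, at X:10766041-10785176, X:2904987-2923528 and X:1508120-1526138, spanned 18019 to 19136 bp. The first, in the centre, overlapped 1 peak of replicate 1, and the others, on the left arm, 3 each.

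Score ranks on X were slightly higher than on the autosomes in the replicate lists. The median X peak stood at percentile 52.2 of replicate 1 and the median autosomal peak at 49.5. In replicate 2 these percentiles were 52.4 and 49.6. The difference was 2.71 ± 0.0794 percentile points (SD, n = 2). That SD does not measure the counting error of the medians, for which no interval was computed. In the series-level list the direction was the opposite, with medians at percentile 47.6 on X and 50.4 on the autosomes. Among single autosomes, II came near X in replicate 1, at 52.1, and V lay above X in replicate 2, at 53.5. In each of these lists the remaining autosomes had lower medians than X. In replicate 1, 14 X peaks reached the ceiling score or passed it, or 4.28%, where 4.12% of the whole list did and 4.09% of the autosomal peaks. In replicate 2 these were 57 X peaks, or 11.3%, where 10.3% of the whole list did and 10.1% of the autosomal peaks. Both shares were near the background. Of the 14 X peaks of replicate 1 at the ceiling, 12 met a replicate 2 peak also at the ceiling, as did 78 of 96 on the autosomes.

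Along X the median score rank varied by step. The step from 9 to 10 Mb, in the centre, had the lowest median percentile in both, at 35.5 in replicate 1 (17 peaks) and 20.8 in replicate 2 (23 peaks). The highest were at 10 to 11 Mb in replicate 1, at 71.3, and at 6 to 7 Mb in replicate 2, at 66.5. Across the 17 full steps the medians of the replicates had a Spearman rho of 0.63, as a description. The step from 9 to 10 Mb, singled out after its values were seen, still held the X peak with the highest score of replicate 2, 3163.29 at X:9951058-9957261. By part, the left arm had median percentiles of 55.5 and 58.8 in replicates 1 and 2, the centre 56.0 and 49.5, and the right arm 47.3 and 49.8.

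The strongest X peaks found in both replicates were ranked by the mean of their percentiles. First came X:10567027-10577827 in the centre, with a score of 3181.61 in replicate 1, at percentile 99.9. In replicate 2 it was called at X:10566833-10577572 with a score of 3100. The second, X:13947527-13957956 on the right arm, scored 2290.57 in replicate 1 and 3144.83 in replicate 2. It came before domains with 3100 in both replicates only because 3144.83 ranked above the replicate 2 peaks tied at 3100. The order of these first domains therefore rests on scores above 3100, whose meaning is unknown. After these, 11 domains had exactly 3100 in both replicates and tied in rank, and the 8 with the greatest mean width were taken. On the left arm these were X:5817400-5828950, X:2696786-2706922, X:4609296-4619332, X:4959822-4968482 and X:6087510-6093275. In the centre they were X:10198665-10207295, X:6616923-6623663 and X:11602400-11607315. The other 3 tied domains, X:12689764-12695126, X:13142483-13146205 and X:14489241-14492119, had smaller mean widths, spanned 5363, 3723 and 2879 bp in replicate 1, and all lay on the right arm. The widths of the 10 domains taken, 4916 to 11551 bp in replicate 1, are thus in part set by the choice. They held between 1 and 5 series-level peaks each, and the best of these scored between 32.81 and 104.23. In the 3 tied domains not taken the best scored 157.46, 103.93 and 113.37. Domains tied at the ceiling in both replicates thus had different scores in that list. No gene is named for any region, since no annotation of WS220 was used.

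By variance over mean, peaks on X were more evenly spread than on the autosomes at the 100 kb scale. The number of peaks per 100 kb window had a variance close to its mean on X, with a ratio of 1.01 in replicate 1 and 0.992 in replicate 2. The autosomes ranged from 1.297 (IV) to 1.69 (V) in replicate 1 and from 1.15 (III) to 1.65 (V) in replicate 2, so X was the lowest of the 6 chromosomes in both. This ratio is 1 for counts that vary only as independent placement would make them and rises with clumping. X also held fewer peaks per window than I to IV. Its mean was 1.85 in replicate 1, against 2.40 (IV) to 3.76 (I), and 2.85 in replicate 2, against 3.59 (IV) to 5.18 (I). V was nearer to X, at 1.92 and 2.64. The part of density in the difference from I to IV was not tested. X was no longer the lowest in replicate 2 with 200 kb windows, where it had 1.29, II had 1.11 and III had 1.25. Nor was it the lowest among replicate 2 peaks with scores no lower than the list's median, where it had 0.904 and IV had 0.884. The fullest X window held 6 peaks in replicate 1 and 8 in replicate 2, against 11 and 14 among all autosomes and 8 and 9 on V alone.

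Chromosome V, which matched X in peak density, showed the contrast most plainly. Of the 177 full windows of X, 21 had no peak in replicate 1, or 11.9% (Wilson interval 7.89 to 17.5), and 8 had none in replicate 2, or 4.52% (2.31 to 8.66). Of the 208 windows of V, 62 were empty in replicate 1, or 29.8% (24.0 to 36.3), and 38 in replicate 2, or 18.3% (13.6 to 24.1). The spacing between neighbouring midpoints on X had a median of 31.7 kb in replicate 1 and 23.6 kb in replicate 2, against 23.3 and 18.4 kb on V and 16.9 and 13.1 kb on all autosomes. Its coefficient of variation was 1.05 on X in both replicates. On single autosomes it ran from 1.25 (IV) to 1.73 (V) in replicate 1 and from 1.14 (III) to 1.59 (V) in replicate 2. The first quartile of spacings was 14.3 and 9.73 kb on X in replicates 1 and 2, against 7.80 and 7.61 kb on V. The longest spacings were 328.3 and 323.3 kb on X, against 1122 and 704.7 kb on V, so X lacked the very long spacings of V. They were also longer on II and IV than on X, but shorter on I (241.1 and 205.0 kb) and III (300.6 and 208.1 kb).

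**Figure D4:**
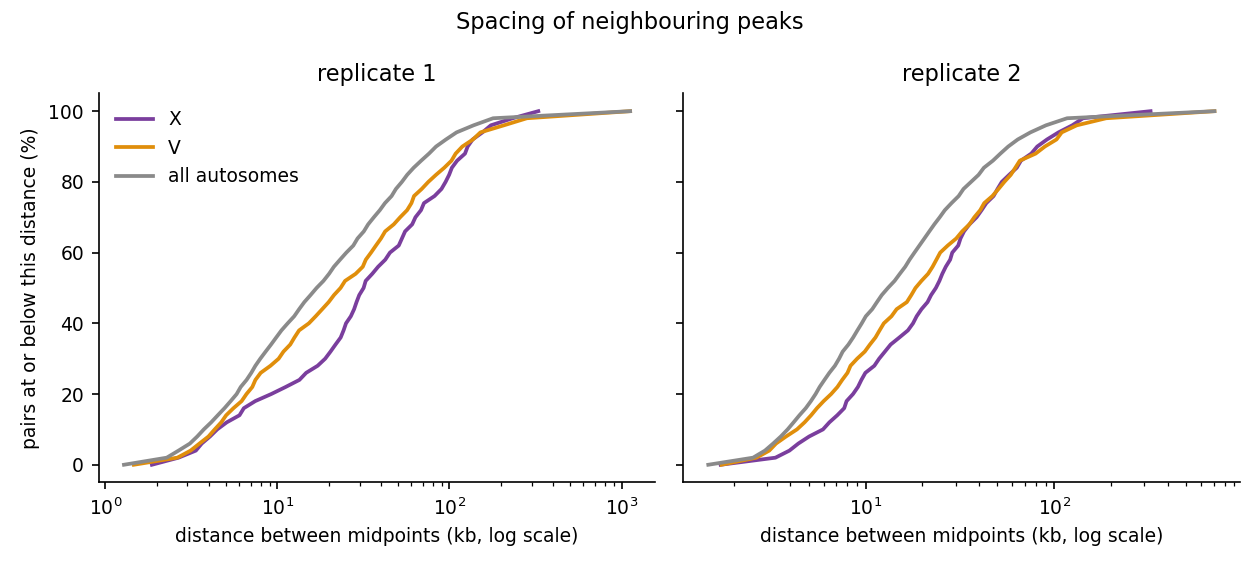
Cumulative percent of neighbouring peak pairs (vertical axis) by distance between their midpoints (horizontal axis, log scale) on X, V and all autosomes. The X curve lies to the right of both others around the median, with medians of 31.7 and 23.6 kb in replicates 1 and 2. At the 98th percentile it is still to the right of all autosomes, at 233.0 against 179.3 kb and 141.9 against 116.8 kb. It ends sooner, at 328.3 and 323.3 kb, since the longest autosomal spacings are those of V.

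Close neighbours were less frequent on X. In replicate 1, 119 of 327 X peaks had another peak within 5 kb of their edge, or 36.4% (31.4 to 41.7), where 55.2% of the whole list did. In replicate 2, 216 of 506 did, or 42.7% (38.4 to 47.0), where 62% of the whole list did. The autosomal shares were 57.8% (55.8 to 59.8) and 65.0% (63.3 to 66.6). The difference of X from the autosomes was -21.9 ± 0.604 percentage points (SD, n = 2), and -11.3 for neighbours within 1 kb. On V, whose peak density was near that of X, the share was 52.0% (47.1 to 56.8) in replicate 1 and 53.5% (49.4 to 57.6) in replicate 2. Both V intervals lie above those of X. The part of density in the difference of X from the other autosomes was not tested.

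Within X, the top score quartile had the lowest share of peaks with a close neighbour in both replicates. In replicate 1, 24.7% of X peaks in the top score quartile (n = 89) had a neighbour within 5 kb, against 42.2% in the lowest (n = 90). The autosomes had 58.7% in the top and 56.4% in the lowest quartile. In replicate 2 the X shares were 38.3% in the top and 45.4% in the lowest quartile, and the autosomal ones 61.2% and 63.8%. Strong peaks are also wide ones, and the part of width in this was not tested.

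Runs of peaks were correspondingly short. Peaks joined across gaps of up to 5 kb formed 260 runs on X in replicate 1, of which 208 were single peaks and the longest had 4. In replicate 2 they formed 385 runs, 290 of them single, and the longest had 5. Runs of 3 or more held 12.54% of X peaks in replicate 1 and 13.8% in replicate 2, against 27.5% and 34.8% on the autosomes, where the longest had 10 in each. On V, whose density was near that of X, such runs held 17.2% and 21.1%. The longest run of V had 6 peaks in replicate 1 and 5 in replicate 2, the latter equal to X. When the peaks of both replicates were joined in this way, X had 1 run with more than 30 kb of covered bases, where I had 11, III had 9, II had 6, IV had 3 and V had 2.

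That run lay at X:3089425-3128669 on the left arm, with 32.2 kb covered, but 4.80 kb of it was covered in both replicates. The second, X:9405377-9435847 in the centre, had 28.6 kb covered and 3.16 kb in both. The third, X:7455318-7481973 in the centre, had 20.2 of its 24.9 kb covered in both. It held 3 peaks of each replicate and 20 series-level peaks. The fourth, X:14557202-14592606 on the right arm, had 12.8 of 23.0 kb in both. The fifth, X:9088163-9112996 in the centre, consisted of 2 replicate 1 peaks and none of replicate 2. In 3 of these 5 runs, most of the covered bases thus came from a single replicate.

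Long stretches without peaks were present on X, and the longest was shorter than on II, IV and V but longer than on I and III. It was X:1526139-1839462 on the left arm, 313.3 kb with no peak in either replicate, and held 3 series-level peaks with scores of at most 4.2. The next were X:12203923-12397350 in the centre (193.4 kb), X:15852188-16033952 on the right arm (181.8 kb), and X:155827-326924 (171.1 kb) and X:3974747-4145541 (170.8 kb) on the left arm. These 5 stretches, chosen for having no replicate peak, held 1 to 3 series-level peaks each, or between 5.50 and 17.6 per Mb. Over all 15.0 Mb of X free of replicate peaks, the series-level peaks found in neither replicate numbered 43.6 per Mb. Stretches of more than 150 kb numbered 8 on X, against 16 on V, 8 on IV, 4 on II, 2 on III and 1 on I. The longest stretches were 697.8 kb on V, 421.2 kb on IV, 324.1 kb on II, 206.6 kb on III and 203.1 kb on I. The median stretch was longest on X, at 17.1 kb, with 12.8 kb on V and 5.19 (I) to 7.89 kb (IV) on the others.

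Replicate sharing was as high on X as elsewhere. Of the 327 X peaks of replicate 1, 297 overlapped a replicate 2 peak by at least 1 bp, or 90.8% (87.2 to 93.5), where 86.8% of the whole list did. On the autosomes the share was 86.3% (84.8 to 87.6). Of the 506 X peaks of replicate 2, 267 overlapped a replicate 1 peak, or 52.8% (48.4 to 57.1), where 52.6% of the whole list did, as did 52.6% (50.9 to 54.3) on the autosomes. The share of replicate 2 peaks was thus at the background. With midpoints required to lie within 500 bp, 46.5% of replicate 1 peaks on X were shared (41.1 to 51.9) and 40.9% on the autosomes (39.0 to 42.9), where 41.6% of the whole list were. Of replicate 2 peaks it was 30.0% on X (26.2 to 34.2) and 29.0% on the autosomes (27.5 to 30.6), where 29.1% of the whole list were. The share of replicate 1 peaks was the highest of the 6 chromosomes, but near that of V, 89.3% (85.9 to 92.0), and of IV, 89.0% (85.6 to 91.6), and their intervals overlap that of X. Wider peaks overlap more readily, and the part of width in the X share was not tested. Fewer bases were open to overlap on X, where replicate 2 covered 14.2%, against 18.1% on the autosomes.

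In bases, 1.41 Mb of X lay in peaks of both replicates. This was 87.9% of the replicate 1 bases on X and 55.8% of the replicate 2 bases, against 83.1% and 53.9% on the autosomes. Within X the shared bases were 91.1% of replicate 1 bases on the left arm, 83.4% in the centre and 89.0% on the right arm. As shares of replicate 2 bases they were 58.6%, 50.4% and 59.0% in the same order. The centre was the lowest part by both of these base measures. By contrast, the share of series-level peaks in a peak of at least 1 replicate was highest in the centre, at 79.3% (76.6 to 81.8). It was 72.8% (69.8 to 75.7) on the left arm and 70.7% (67.3 to 73.8) on the right arm.

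By step, sharing of replicate 1 peaks ran from 64.7% to 100%. The low end was again the step from 9 to 10 Mb, where 11 of 17 replicate 1 peaks were found in replicate 2 (41.3 to 82.7), the only step whose whole interval lay below the autosomal share. All 16 replicate 1 peaks from 10 to 11 Mb, the next step, were found in replicate 2. For replicate 2 peaks the share ran from 33.3% at 11 to 12 Mb (11 of 33 peaks, interval 19.8 to 50.4) to 72.7% at 13 to 14 Mb (16 of 22, interval 51.8 to 86.8). The step from 11 to 12 Mb was the only one whose interval lay below the autosomal share for that list. It also had the highest ratio of replicate 2 to replicate 1 peak numbers, 2.54, with 33 peaks in replicate 2 and 13 in replicate 1. With 18 intervals read in each list, 1 that misses the autosomal share can arise from counting error alone.

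**Figure D5:**
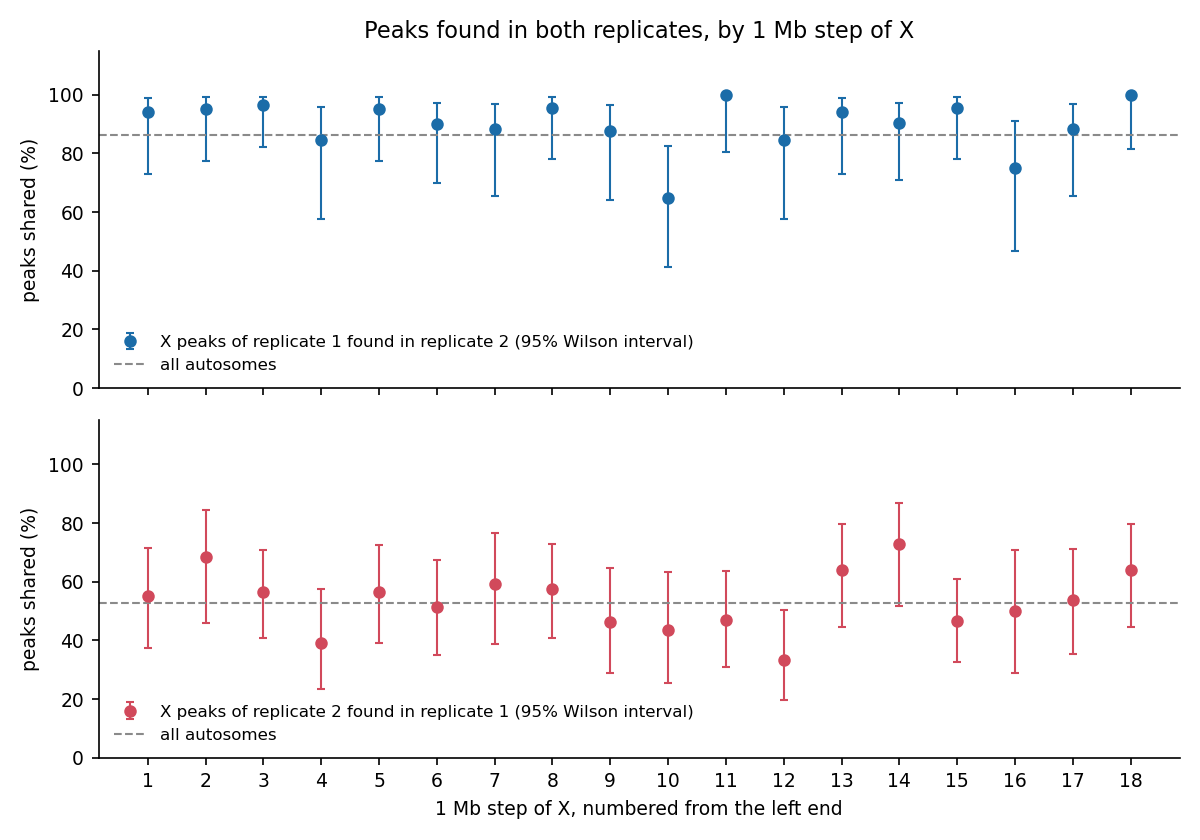
Percent of X peaks of each replicate that overlapped a peak of the other (vertical axis, Wilson intervals) in each 1 Mb step (horizontal axis); the dashed line is the share over all autosomes. For replicate 1 the lowest step is step 10, at 64.7%, and for replicate 2 it is step 12, at 33.3%.

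Sharing rose with score on X as on the autosomes. For replicate 2 peaks on X it was 17.6% (11.8 to 25.5) in the lowest score quartile and 89.1% (82.5 to 93.4) in the highest, against 19.0% and 91.5% on the autosomes. For replicate 1 peaks on X it was 82.2% (73.1 to 88.8) in the lowest and 95.5% (89.0 to 98.2) in the highest, against 79.8% and 92.4%. The 239 X peaks of replicate 2 not found in replicate 1 had a median score of 171.59 and a median width of 2484 bp, against 914.77 and 5897 bp for the 267 shared ones. The 30 X peaks of replicate 1 not found in replicate 2 had a median score of 97.86, against 256.32 for the shared ones.

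A few strong X peaks were found in a single replicate. In replicate 2, X:11408495-11415982 in the centre reached the ceiling of 3100, and the nearest replicate 1 peak was 13827 bp away. It was followed by X:5591510-5597214 on the left arm (score 2957.7), X:10152615-10159574 in the centre (2212.33), and X:3682606-3688727 and X:3208252-3214458 on the left arm (2166.25 and 2007.86). In replicate 1 the strongest such peak was X:3111073-3128669 on the left arm, with a score of 2030.09, a width of 17597 bp and a replicate 2 peak 4911 bp away. Next came a neighbouring pair in the centre, X:8280968-8285403 (923.47) and X:8293727-8299490 (757.56), 49747 and 62506 bp from the nearest replicate 2 peak. The remaining ones were X:13676556-13682781 on the right arm (701.42) and X:11525428-11534656 in the centre (324.2). These 10 peaks contained between 2 and 11 series-level peaks each. Of all X peaks, 2 of 327 in replicate 1 and 0 of 506 in replicate 2 contained none, so this is the usual state.

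Where 1 peak of each replicate met on X, the median shift of each edge was below 500 bp, but both edges were that close at a minority of sites. There were 232 such sites on X and 1431 on the autosomes. The start moved by a median of 271 bp and the end by 266.5 bp on X, against 257 and 228 bp on the autosomes. Both edges lay within 500 bp of each other at 83 sites on X, or 35.8%, and at 42.6% of the autosomal sites. The replicate 2 peak was the wider at 178 of 232 sites on X, or 76.7% (70.9 to 81.7), against 77.5% (75.3 to 79.6) on the autosomes, and the median ratio of widths was 1.15 on X and 1.16 on the autosomes. Widths of the replicates had a Spearman rho of 0.85 across the X sites and 0.74 across the autosomal ones, and scores 0.65 and 0.66. Leaving out pairs with a ceiling score, the rho of scores was 0.43 across 181 X sites and 0.51 across 1176 autosomal ones. These are descriptions across sites of the same 2 libraries. A single replicate 2 peak met several replicate 1 peaks at 30 of its 267 shared X sites, or 11.2%, and at 14.7% of the autosomal ones.

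The narrow peaks of the series-level list were also sparser on X than on the autosomes as a whole. X had 145.0 of them per Mb (139.5 to 150.8) and the autosomes 193.4 (190.4 to 196.4), a ratio of 0.750 (0.719 to 0.782). Against V the ratio was 1.21 (1.14 to 1.28). The left arm, the centre and the right arm were alike, at 144.5, 146.5 and 143.9 per Mb. Of the X peaks, 1916 of 2570 lay in a peak of at least 1 replicate, or 74.6% (72.8 to 76.2), where 74.6% of the whole list did. Without replicate 2 the X share was 40.6%, and without replicate 1 it was 70.3%. The peaks comprised 934 in both replicates (36.3%), 873 in replicate 2 only (33.97%) and 109 in replicate 1 only (4.24%, 3.53 to 5.09). On the autosomes these classes made up 32.7%, 35.5% and 6.49% (6.12 to 6.88). Within X, the replicate 1 only class was 6.67% (5.24 to 8.46) in the centre, 2.14% (1.38 to 3.32) on the left arm and 3.71% (2.58 to 5.31) on the right arm.

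A broad X peak held more narrow ones than a broad autosomal peak did, in proportion to its width. Replicate 1 peaks held 3.21 series-level peaks on average on X and 2.68 on the autosomes, and replicate 2 peaks 3.57 and 3.28. Per 10 kb of replicate 1 peak the numbers were 6.56 on X and 6.49 on the autosomes, and per 10 kb of replicate 2 peak 7.16 and 7.27. Nearly all series-level peaks had a neighbour within 5 kb, 95.1% on X (94.2 to 95.9), where 96% of the whole list did. The variance over the mean of their number per 100 kb was 4.40 on X, the lowest of the 6 chromosomes, with 4.55 on I and 6.84 on V.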

How the data were processed

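Per the submitters' processing notes, reads were aligned with BWA to ce10, the UCSC name of the WormBase assembly WS220 that the file headers give. Per the file headers and columns, the authors called peaks with MACS for each ChIP replicate and with MACS v2 for the series-level list. The sources used here do not give the thresholds, the control or how the series-level list was made. The deposited values are a start, an end and the authors' score per peak, and no values of the input samples were used. Read depth is unknown.

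A peak was placed by its midpoint, in 3 parts of X and in steps of 1 Mb. Chromosome lengths were taken as the last peak end in any list, which gave 17.72 Mb for X. Overlap meant at least 1 bp, and tied scores shared their mean rank. Intervals at 95% were exact Poisson for densities, exact conditional binomial for density ratios and Wilson for shares. Peaks of 1 list are not independent, and no p-value was computed. The members, parts and tests were chosen with earlier results of these data known, as were the rules for the regions named: the 10 strongest peaks found in both replicates, the 5 widest and the 5 strongest unshared of each replicate, the 5 longest free stretches, the 3 fullest and 3 emptiest steps, the 5 largest runs, and the 5 highest series-level peaks, overall and among those in neither replicate. The alternatives for variance over mean were chosen after seeing the data. Overlaps, gaps, covered bases and window counts were tested on simulated lists. The tools were numpy 2.4.6, scipy 1.17.1, pandas 2.3.3 and matplotlib 3.10.9 under Python 3.11.15.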

Additional observations from a re-analysis of the deposited data

How the results depend on the processing

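Of 56 alternative values for 10 results, 27 stayed within the replicate spread or the counting interval, 27 moved further and 2 changed side. For results given as a mean of the 2 replicates, a value leaving out 1 of them always lies within their SD. Those values were bound to count among the 27 that stayed, and say nothing about stability. Stronger-scoring peaks are those with scores no lower than their list's median. The X to autosome density ratio, 0.680, was below 1 in every alternative, with 0.778 in covered bases, 0.728 for the stronger-scoring peaks, 0.750 in the series-level list and 0.611 without V. It was 0.649 without replicate 2 and 0.711 without replicate 1. The centre to arms ratio, 0.867, was 0.973 in covered bases and 1.02 in the series-level list, the other side of 1. It was 0.802 without replicate 2 and 0.932 without replicate 1. The right to left arm ratio, 0.940, was 0.905 in covered bases, 0.784 for the stronger-scoring peaks and 0.996 in the series-level list, and 0.930 to 0.949 leaving out 1 replicate. The width ratio, 1.21, was 1.02 in the series-level list, 1.15 for the stronger-scoring peaks and 1.18 to 1.23 leaving out 1 replicate. The score difference, 2.71 percentile points, was -2.79 in the series-level list, 3.67 without ceiling scores and 2.45 against the mean of the autosome medians, and 2.66 to 2.77 leaving out 1 replicate. The neighbour difference, -21.9 points, was -11.3 within 1 kb, -20.9 within 10 kb, -1.02 in the series-level list and -19.1 for the stronger-scoring peaks, and -22.3 to -21.4 leaving out 1 replicate. The X variance over mean, 1.00, was 1.07 in 50 kb windows, 1.20 in 200 kb windows, 0.866 for the stronger-scoring peaks, 0.847 with peaks under 500 bp apart merged and 4.40 in the series-level list, and 0.992 to 1.01 leaving out 1 replicate. These alternatives were chosen after seeing the data. Sharing of replicate 1 X peaks, 90.8%, was 46.5% by midpoints within 500 bp and 84.7% for the stronger-scoring peaks of both lists. Sharing of replicate 2 X peaks, 52.8%, was 30.0% by midpoints. The share of series-level X peaks in a replicate peak, 74.6%, was 89.1% for the stronger-scoring peaks, and from 40.6% without replicate 2 to 70.3% without replicate 1. The cause was not tested for any of these changes. No paired analysis was possible because the input samples, which share the replicate numbers, have no values analysed here. Since read depth is unknown, its effect on either replicate's list was not tested.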

Other observations

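In the series-level list the scores of X peaks ranked lower than those of the autosomes, the other side from the replicate lists. The top score decile held 200 of 2570 X peaks, or 7.78% (Wilson interval 6.81 to 8.88), where it held 10% of the whole list and 10.4% (9.90 to 10.8) of the autosomal peaks. The share on single autosomes ran from 9.23% (IV) to 11.5% (V). Among peaks found in both replicates the median score was 13.3 on X and 15.9 on the autosomes, and among those found in neither 4.93 and 5.12. X supplied 5 of the 100 highest series-level peaks and 104 of the highest 1000, where it held 13.9% of the whole list.

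The 5 highest series-level peaks of X lay in peaks of both replicates. The highest, X:12691307-12694670 on the right arm, scored 157.46 and met ceiling scores of 3100 in both replicates. The next pair, X:16943570-16945435 and X:16929274-16943511 on the right arm, scored 148.21 and 127.22 and belonged to 1 broad peak of each replicate, with 825.21 in replicate 1 and 3100 in replicate 2. The wider of these, of 14238 bp, was 1 of 8 series-level X peaks over 8 kb. The others, X:5995215-5999614 and X:1441162-1446859 on the left arm, scored 118.42 and 115.13.

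A few strong series-level peaks of X lay in no replicate peak. The highest, X:4523534-4527055 and X:4516607-4518932 on the left arm, scored 65.76 and 64.21, at percentiles 97.2 and 97.0 of their list, and the nearest replicate peaks were 6489 and 11636 bp away. On the same arm, X:4594675-4595992 scored 40.41 at a distance of 2541 bp. The others were X:10604885-10606901 in the centre (43.21) and X:3035962-3036321 on the left arm (35.21), the last 53103 bp from any replicate peak.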
